A study of Rattus norvegicus with 30 samples.

Results

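In the embryonic cortex of rats whose dams were fed a high-fat diet (HFD), 5287 intervals of H3K27me3 lay near H3K4me3 and were matched by no interval of the control H3K27me3 list. They were chosen from the HFD H3K27me3 peak list by 3 conditions, namely a width of at least 500 bp, no overlap with any interval of the control H3K27me3 list, and a gap of at most 2500 bp to an interval of the H3K4me3 list of either diet. The HFD H3K27me3 list holds 49072 intervals. Of these, 23924 were wide enough, 20905 of the wide intervals lay near H3K4me3, and 5287 of those were free of control overlap. The regions made up 10.8% of the HFD list and covered 4.96 Mb of the rat genome build rn6.

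H3K27me3 is written by the Polycomb repressive complex PRC2, whose catalytic subunit is EZH2, and is found at silenced genes. H3K4me3 is typical of promoters in use, and promoters of developmental regulators that carry both marks are called bivalent, a state linked to genes that are silent but can be switched on as neural progenitors differentiate. H4K16Ac is an acetylation of open chromatin, while antibodies to total H3 and pan H4 recognise the histones with or without modification and so report where nucleosomes were recovered.

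ChIP-seq was done on the frontal cortex of E14.5 Wistar rat embryos with antibodies to H3K27me3, H3K4me3, H4K16Ac, pan H4 and total H3. Control dams were fed normal chow, and HFD dams a commercial high-fat diet before and during pregnancy. With 3 libraries for each combination of antibody and diet there were 30 libraries, and the authors deposited 1 peak list per combination, called on its 3 libraries together, so that 10 lists were compared. Replicate 3 of control total H3 carries the treatment label of the HFD group but a control title, was taken as control, and cannot be separated from its list. The cortex is whole tissue, so that a mark in fewer cells and less of the mark per cell cannot be told apart. The tissue label was not checked against marker genes, because no rn6 gene annotation was used here.

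Since every combination of antibody and diet is represented by 1 list, the replicate error of a difference between diets is unknown and no test was possible. The 95% Wilson intervals below cover counting error only, and neighbouring regions of one genome are not replicates. Every interval has a fold enrichment, the pileup of fragments over the background plus a pseudocount in MACS2, and a −log10 q. In the broad lists of H3K27me3 and H4K16Ac these are averages over the interval, and in the narrow lists of the other antibodies they belong to the strongest summit. The background pileup read from the most frequent fold enrichment for H3K27me3 was 0.880 fragments per base in control and 0.351 in HFD. For the other antibodies it was 1.23 in control and 1.08 in HFD (H3K4me3), 1.61 and 1.75 (H4K16Ac), 1.64 and 1.80 (pan H4), and 1.01 and 1.13 (total H3).

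The H3K27me3 values and the absence of control overlap chose the regions and are given as a description. Of the wide HFD intervals near H3K4me3, 25.3% (24.7% to 25.9%) had no control overlap, where 34.1% of all wide HFD intervals had none. Far from H3K4me3 this held for 2872 of 3019 intervals (95.1%, 94.3% to 95.8%). In the reverse direction, 14897 of 36049 wide control intervals near H3K4me3 (41.3%, 40.8% to 41.8%) overlapped no HFD interval. The regions in HFD only were thus accompanied by a larger number in control only. The background pileup of the HFD H3K27me3 list was 39.9% of that of control, and its part in these counts was not tested. The 15618 wide HFD intervals near H3K4me3 that did overlap a control interval are called shared intervals below.

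H3K27me3 itself was weak at the regions in HFD only. Their median fold enrichment was 2.75 (quartiles 2.60 and 2.94), with a lowest value of 1.46 and a highest of 5.98. Shared intervals had a median of 3.18 (2.87 and 3.61), and HFD-only intervals far from H3K4me3 a median of 2.78 (2.64 and 2.93). The median −log10 q was 0.706, a q of 0.197, against 1.12 for shared intervals. A q of at most 0.05 was reached by 274 of the regions (5.18%, 4.62% to 5.81%) and by 6009 of the shared intervals (38.5%, 37.7% to 39.2%). For HFD-only intervals far from H3K4me3 the share was 1.95%, and for intervals in control only 48.1%. Over the whole H3K27me3 lists it was 24.1% in HFD and 60.8% in control. These lists held intervals with a q of up to 0.480 in HFD and 0.486 in control. A −log10 q of at least 5 was reached by 2 of 5287 regions, against 416 of 15618 shared intervals and 2883 of 14897 intervals in control only. The last set comes from the control list, whose background pileup was 0.880 against 0.351 in HFD, so that its values are not on the same scale. The approximate pileup behind the regions had a median of 2.72 fragments per base. It was obtained from the averaged fold enrichment and the background pileup, and is not a count of fragments in the 3 libraries.

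Width set the regions apart less than strength did. The median was 886 bp (quartiles 676.5 and 1119), against 865 bp (658 and 1194) for shared intervals and 894 bp for intervals in control only. The widest region had 3318 bp, and 303 regions were 1500 bp or wider.

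**Figure D1:**
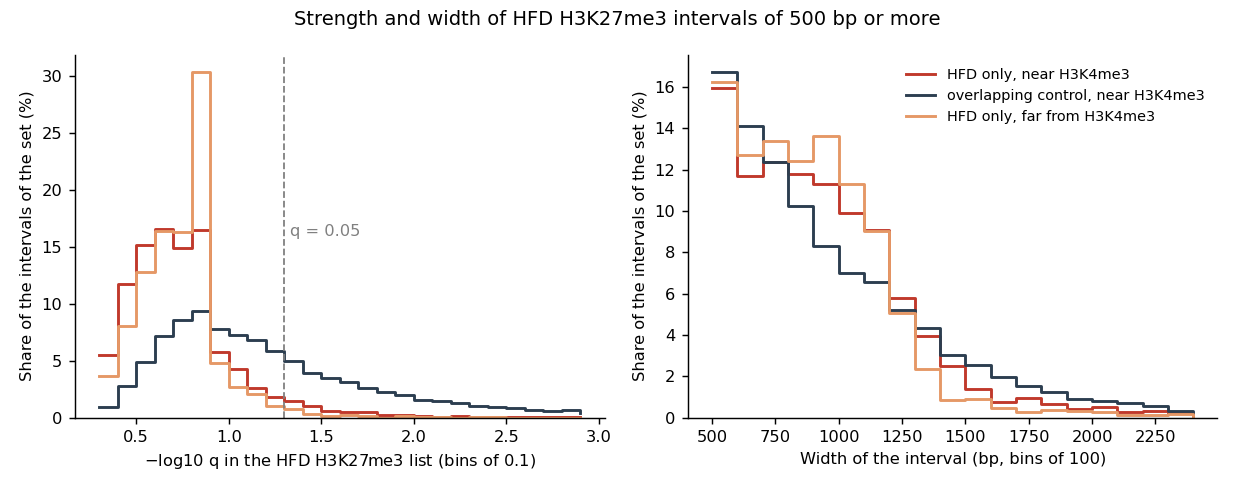
Share of intervals (%) by −log10 q in bins of 0.1 (left) and by width in bins of 100 bp (right) for wide HFD H3K27me3 intervals, with 1 line for each set; the axes end at 3 and at 2500 bp, beyond which lie 6.84% of the shared intervals by −log10 q and 1.31% by width. The HFD-only sets near and far from H3K4me3 lie mostly left of q = 0.05, while 38.5% of the intervals overlapping control lie right of it.

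The thresholds of the rule cut through a continuous population. The 472 regions of 500 to 549 bp had a median fold enrichment of 2.86, and the 684 otherwise eligible intervals of 450 to 499 bp had 2.85. The 279 regions with a gap of 2001 to 2500 bp to H3K4me3 had a median of 2.70, and the 248 HFD-only intervals with a gap of 2501 to 3000 bp had 2.68. The 100 regions within 100 bp of a control interval had a median of 2.76, and the 145 intervals that overlapped a control interval by 1 to 100 bp had 2.70.

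The nearest control H3K27me3 interval was usually several kilobases away. The median gap was 7145 bp (quartiles 2384.5 and 19379.5) and the largest 518545 bp. For intervals in control only, the median gap to the HFD list was 10849 bp. Within 1000 bp of a region a control interval was listed in 525 cases (9.93%) and within 2500 bp in 1368 (25.9%), whereas for 2171 regions (41.1%) none was listed within 10000 bp. At 1528 regions (28.9%, 27.7% to 30.1%) an H3K4me3 interval in reach had a control H3K27me3 interval within 2500 bp of it. At these sites the region and a control H3K27me3 interval lay around the same H3K4me3 interval without overlapping each other. Whether another HFD interval overlapped that control interval was not examined.

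The regions were dispersed. The median gap between neighbouring regions was 107857 bp, and 56 of them (1.06%) had another region within 2500 bp. They reached 5067 control and 5139 HFD H3K4me3 intervals, of which 29 and 40 were reached by 2 or more regions. Over chromosomes 1 to 20 and X the HFD-only share of wide HFD intervals near H3K4me3 had a median of 25.8%, and the 95% interval of 17 of these 21 chromosomes held the pooled 25.3%. Chromosome 12 had the highest share (33.0%, 29.6% to 36.6%) and chromosome X the lowest (16.5%, 13.7% to 19.7%). Chromosome 12 was also high in the reverse direction, with 51.6% of its wide control intervals near H3K4me3 in control only. On X the reverse share was 40.9%, close to the 41.3% of the genome. The other chromosomes outside the pooled value were 6 (28.3%) and 1 (23.2%).

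**Figure D2:**
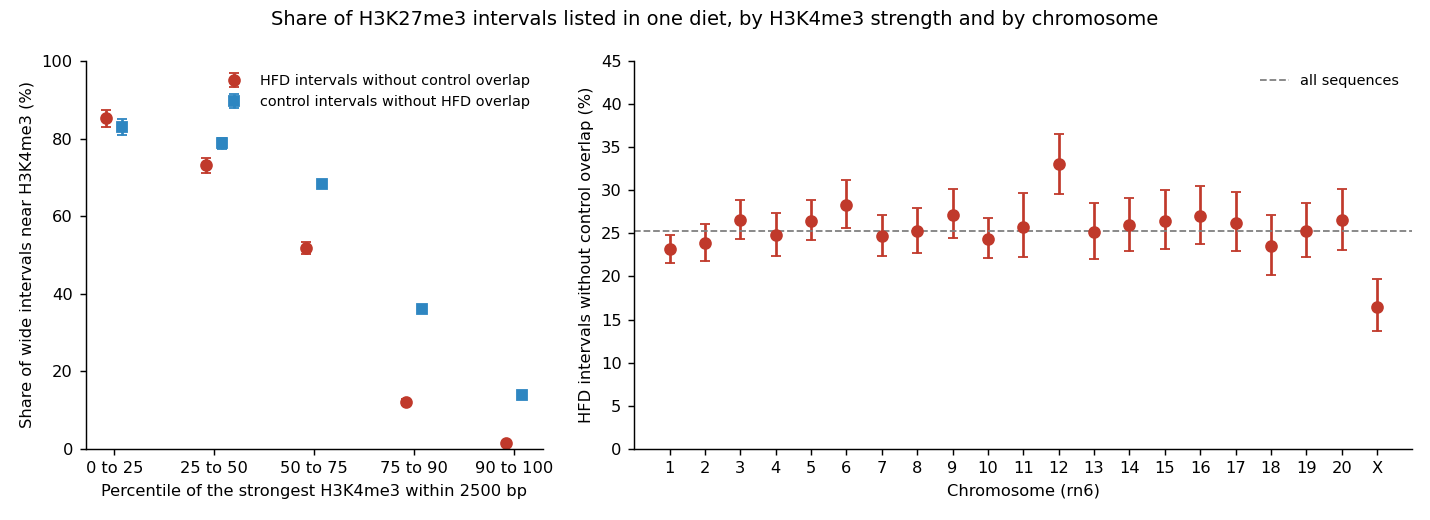
Left, share of wide H3K27me3 intervals near H3K4me3 with no overlap in the other diet (%), by the percentile of the strongest H3K4me3 interval within 2500 bp; right, the HFD-only share by chromosome, with the pooled 25.3% as a dashed line. Bars are 95% Wilson intervals for counting error only; the HFD-only share falls from 85.3% to 1.49% over the H3K4me3 classes, and chromosomes 12 and X lie farthest from the pooled share.

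The H3K4me3 sites near the regions were weak beside those of the shared intervals and close to the middle of the H3K4me3 lists. Nearness to H3K4me3 was part of the rule, but its strength was not. Each H3K4me3 interval was ranked by −log10 q within its own list, where the weakest has percentile 0 and the strongest 100. The strongest H3K4me3 interval in reach of a region had a median percentile of 48.7 in control and 47.8 in HFD. At shared intervals these medians were 89.1 and 88.9, and at intervals in control only 67.6 and 63.7. An H3K4me3 interval with a −log10 q of at least 5 was the strongest in reach for 746 of the 4177 regions with control H3K4me3 in reach (17.9%, 16.7% to 19.1%) and for 761 of the 4117 with HFD H3K4me3 in reach (18.5%, 17.3% to 19.7%). At shared intervals this was 83.5% and 82.6%, and over the whole H3K4me3 lists 27.4% and 28.8%. The H3K4me3 intervals in reach had median widths of 488 bp in control and 476 bp in HFD, against 1019 and 977 bp at shared intervals and 469 and 455 bp over the whole lists.

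Sorted by the percentile of that H3K4me3 interval, the HFD-only share of wide HFD H3K27me3 intervals fell at every step. It was 85.3% (83.1% to 87.3%) in the class from 0 to 25 and 73.2% in the class from 25 to 50. From 50 to 75 it was 51.8% and from 75 to 90 it was 12.0%. In the strongest class, from 90 to 100, 115 of 7735 intervals (1.49%, 1.24% to 1.78%) were in HFD only, whereas 48.8% of all shared intervals belonged to that class. The control-only share fell in the same order, from 83.1% through 78.8%, 68.4% and 36.1% to 13.9%. Of the 115 regions at the strongest H3K4me3, 20 (17.4%) overlapped H3K4me3 and the other 95 lay beside it, and their median gap to a control H3K27me3 interval was 1557 bp. In the class from 50 to 75, 72.7% overlapped H3K4me3 and the median gap was 7293.5 bp.

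H3K4me3 was listed in only one diet at a larger share of these regions than of the shared intervals. An H3K4me3 interval of either diet overlapped 3378 regions (63.9%, 62.6% to 65.2%), and the other 1909 lay beside one at a median gap of 1116 bp. On the region itself, 1507 (28.5%, 27.3% to 29.7%) had H3K4me3 in both lists, 885 (16.7%, 15.8% to 17.8%) in control only and 986 (18.6%, 17.6% to 19.7%) in HFD only. Over all wide HFD intervals near H3K4me3, a set that includes the regions, 76.7% had it in both. It was in control only at 6.19% and in HFD only at 6.80%. At shared intervals the share with H3K4me3 in both was 93.0% (92.6% to 93.4%), and at intervals in control only 63.8% (63.0% to 64.6%). The H3K4me3 in reach of these sets was stronger than at the regions, as given above. Over the whole H3K4me3 lists, of 113056 control and 107919 HFD intervals, 61689 regions were listed in both diets. On the regions in HFD only, H3K4me3 was in the control list at 2392 and in the HFD list at 2493, with 1507 in both. Listing in one diet was thus common over the whole lists too, and not particular to these regions. Within the full reach of 2500 bp, 3007 regions (56.9%, background 86.2%) had H3K4me3 in both lists, 1170 (22.1%, background 7.06%) in control only and 1110 (21%, background 6.74%) in HFD only. The 1507 regions with H3K4me3 in both lists are those where H3K27me3, listed in HFD only, lay on H3K4me3 listed under both diets.

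**Figure D3:**
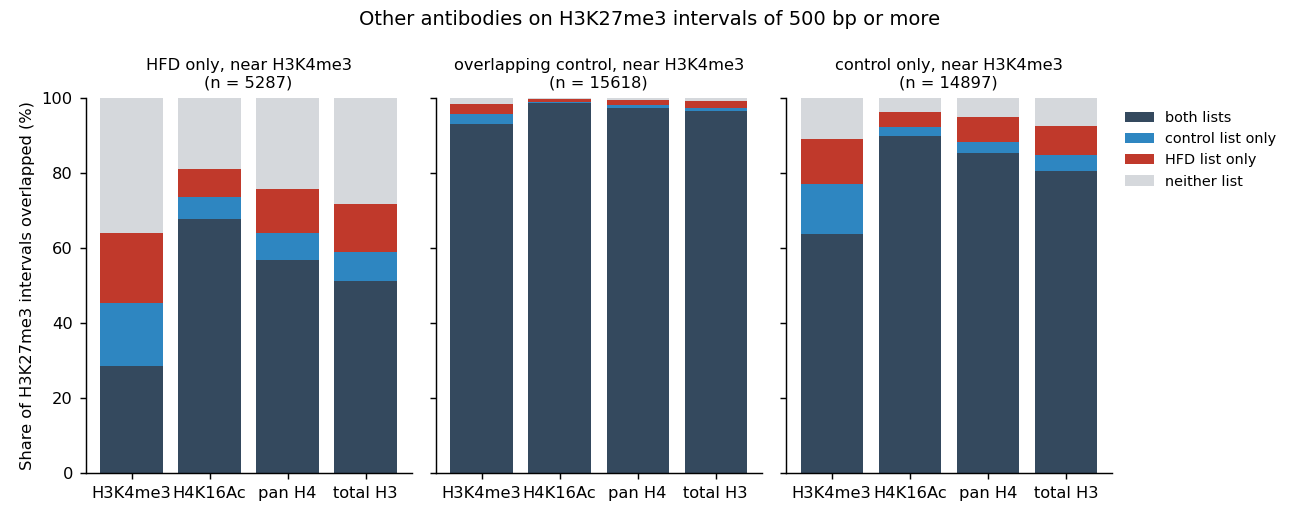
Share (%) of wide H3K27me3 intervals overlapped by at least 1 bp by each other antibody in both lists, the control list only, the HFD list only or neither, for the 3 sets named above the panels. The regions in HFD only have the smallest dark part for every antibody, down to 28.5% for H3K4me3, and the largest grey part.

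H4K16Ac, pan H4 and total H3 were not used by the rule. H4K16Ac was listed on 3574 regions in both diets (67.6%, 66.3% to 68.8%), where 90.8% of all wide HFD intervals near H3K4me3 had it in both. It was listed in HFD only on 399 (7.55%, 6.87% to 8.29%, background 2.46%), in control only on 316 (5.98%, 5.37% to 6.65%, background 1.75%), and in neither on 998 (18.9%). The background here and for pan H4 and total H3 below includes the regions themselves. The shared intervals alone had H4K16Ac in HFD only at 0.736% and in control only at 0.320%. Shared intervals had H4K16Ac in both lists in 98.6%, intervals in control only in 89.7%, and HFD-only intervals far from H3K4me3 in 17.2%. The open-chromatin mark thus overlapped a smaller share of these regions than of the other H3K27me3 intervals near H3K4me3. The share was larger than that of the HFD-only intervals far from H3K4me3. This order was the same for pan H4 and total H3.

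Pan H4 was listed in both diets on 3000 regions (56.7%, 55.4% to 58.1%), against 87.1% of all wide HFD intervals near H3K4me3. It was listed in HFD only on 624 (11.8%, 11% to 12.7%, background 3.98%) and in control only on 382 (7.23%, 6.56% to 7.95%, background 2.28%). Total H3 was listed in both on 2708 regions (51.2%, 49.9% to 52.6%, background 85.1%). It was in HFD only on 689 (13%, 12.2% to 14%, background 4.69%) and in control only on 401 (7.58%, 6.90% to 8.33%, background 2.45%). The HFD-only count on the region was above the control-only count for all 4 other antibodies, although for H3K4me3 the direction was the opposite within the reach of 2500 bp. The same direction was seen for H4K16Ac, pan H4 and total H3 at the intervals in control only, where 3.97% against 2.55%, 6.73% against 2.82% and 7.83% against 4.16% were in HFD only and in control only. For H3K4me3 it was reversed there, with 12.2% in HFD only and 13.2% in control only. The background pileup of the 3 HFD lists of H4K16Ac, pan H4 and total H3 was higher than that of control, as given above, and its part in these counts was not tested.

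Most regions had no antibody listed in HFD only. None of the 4 other antibodies was in HFD only at 3314 regions (62.7%), 1 was at 1394, 2 were at 446, 3 at 120 and all 4 at 13. In control only, the numbers were 3706, 1246, 275, 52 and 8. All 8 lists of the other antibodies overlapped 1226 regions (23.2%, 22.1% to 24.3%), against 91.5% of the shared intervals, and none did at 688 (13%, 12.1% to 13.9%), against 0.0896%. The regions therefore ranged from those with every antibody in both diets to those where H3K27me3 of the HFD list stood alone.

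The cover by the other antibodies differed with the position relative to H3K4me3. Of the 1507 regions with H3K4me3 in both lists, 95.2% also had H4K16Ac in both, 91.7% pan H4 and 85.2% total H3. Of the 1909 beside H3K4me3, these shares were 36.7%, 21.5% and 19.6%. Where H3K4me3 was in HFD only, total H3 was in HFD only at 19.7% (17.3% to 22.3%) and in control only at 7.81% (6.29% to 9.65%). Where H3K4me3 was in control only, total H3 was in HFD only at 13.4% (11.4% to 15.9%) and in control only at 11.2% (9.28% to 13.4%). For pan H4 the corresponding shares were 17.6% and 6.09% with H3K4me3 in HFD only, and 13.8% and 11.8% with H3K4me3 in control only. H4K16Ac turned its direction with H3K4me3, from 11.9% in HFD only and 3.96% in control only to 5.42% and 7.91%.

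The lower cover by the other antibodies was also seen within classes of H3K4me3 strength. In the class from 50 to 75, H4K16Ac was in both lists at 77.3% of the regions and 96.7% of the shared intervals, pan H4 at 67.1% and 91.7%, and total H3 at 60.9% and 88.9%. In the class from 0 to 25, H4K16Ac was in both at 48.2% (45% to 51.5%) of 902 regions and at 81.3% (74.4% to 86.6%) of 155 shared intervals. In the strongest class it was in both at 57.4% of 115 regions and at 99.9% of shared intervals. The classes did not match the sets for overlap with H3K4me3. It overlapped 48.7% of the regions in the class from 0 to 25, 72.7% from 50 to 75 and 17.4% in the strongest class. Over all shared intervals it overlapped 98.4%. The part of this difference in the cover by the other antibodies was not tested.

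**Figure D4:**
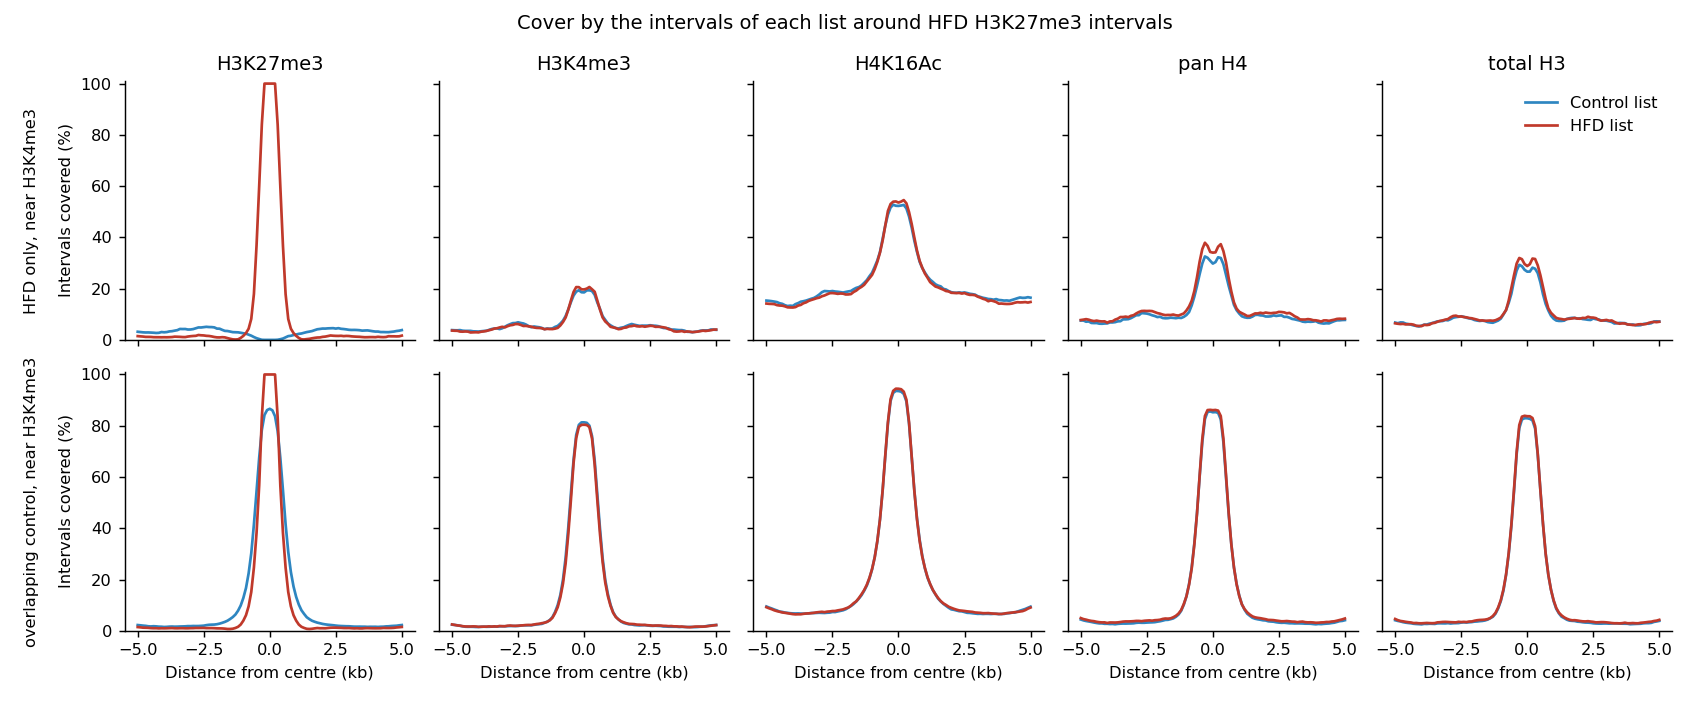
Share of intervals (%) covered by each list at 100 bp steps from 5 kb before to 5 kb after the centre of the H3K27me3 interval, for the regions in HFD only (top) and the shared intervals (bottom), control list in blue and HFD list in red. At the centre of the regions H4K16Ac covers 52.3% in control and 53.6% in HFD and pan H4 29.8% and 34.0%. At shared intervals the same values are 93.5%, 94.4%, 85.3% and 86.1%. The 100% and 0% of H3K27me3 in the top left panel follow from the rule, as does the rise of H3K4me3 near the centre.

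The share of regions covered by each other antibody was higher at the centre than at 5000 bp in both lists. For H3K4me3 this rise follows from the rule, which required nearness to it. H3K4me3 covered the centre of 18.5% of the regions in control and 19.7% in HFD, and total H3 of 26.6% and 28.8%. At 5000 bp from the centre H3K4me3 covered between 3.63% and 4.03% on either side in the 2 lists. Control H3K27me3 covered 4.97% and 4.41% at 2500 bp before and after the centre, where the control list of shared intervals had 2.0% and 2.03%. H4K16Ac formed a broader field, with 14.2% to 16.5% still covered at 5000 bp, against 9.07% to 9.48% around shared intervals.

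Where both diets listed an antibody on the region, its fold enrichment was compared between them. The ratio of HFD to control for H3K4me3 had a median of 1.04 (quartiles 0.836 and 1.25) over 1507 regions, against 0.979 over all 61689 regions of the H3K4me3 lists present in both diets, 0.961 at shared intervals and 0.958 at intervals in control only. A ratio of at least 1.5 was seen at 156 regions (10.4%, 8.91% to 12%), where the background was 7.35%, and a ratio as far in the other direction at 110 (7.30%, 6.09% to 8.72%, background 7.24%). Within the reach of 2500 bp the median was 1.02 over 3007 regions, and with H3K4me3 intervals of −log10 q of at least 5 alone it was 0.973, so that the direction turned with the threshold. The median fold enrichment of H3K4me3 on the regions was 3.58 in control and 3.67 in HFD, against 8.45 and 8.09 at shared intervals.

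H4K16Ac was nearly level between the diets, with a median ratio of 1.03 (quartiles 0.924 and 1.14) over 3574 regions. A ratio of at least 1.5 in favour of HFD was seen at 57 regions (1.59%, background 2.17%) and in favour of control also at 57 (1.59%, background 2.81%). Pan H4 was higher in HFD. Its median ratio was 1.31 (quartiles 1.07 and 1.6) over 3000 regions, and 963 of them (32.1%, 30.5% to 33.8%) had a ratio of at least 1.5, where the background was 25.4%. At 69 regions (2.30%, background 2.90%) pan H4 was as far higher in control. The median pan H4 ratio over the whole lists was 1.23, at shared intervals 1.15 and at intervals in control only 1.26. Total H3 had a median ratio of 1.04 (quartiles 0.854 and 1.26) over 2708 regions, against 0.995 over the whole lists. It was at least 1.5 times higher in HFD at 306 (11.3%, 10.2% to 12.5%, background 8.22%) and as far higher in control at 200 (7.39%, 6.46% to 8.43%, background 8.84%).

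**Figure D5:**
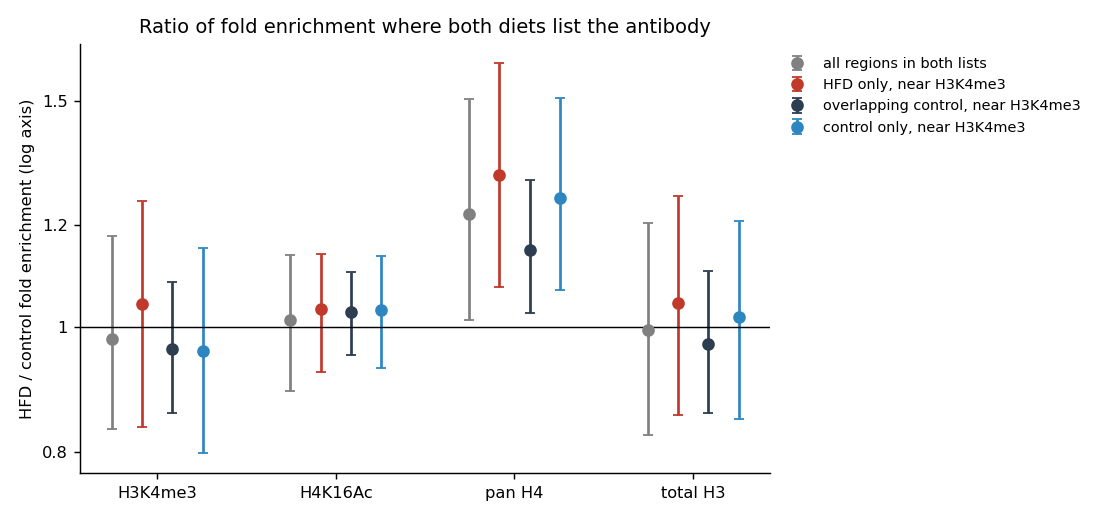
Median ratio of HFD to control fold enrichment (points, log axis) with quartiles (bars, the spread over regions and not an error of replicates) where both diets list the antibody. Pan H4 lies above 1 in all 4 sets, at 1.31 for the regions in HFD only and 1.23 over all regions, while the other antibodies lie between 0.958 and 1.04.

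The stronger regions had more of the other antibodies. Of the 274 regions with a q of at most 0.05, 247 (90.1%) overlapped H3K4me3, and 155 (56.6%, 50.6% to 62.3%) did so in both lists. H4K16Ac was in both lists on 250 of them (91.2%, 87.3% to 94.0%) and in control only on 0, which allows a share of up to 1.38%. Pan H4 was in both on 83.6% and total H3 on 77.4%. The 303 regions of at least 1500 bp had H3K4me3 in both lists in 38.3% (33.0% to 43.9%) and H4K16Ac in both in 84.2% (79.6% to 87.8%), although 3 of them had a q of at most 0.05. On the 3336 regions under 1000 bp and the 1648 regions from 1000 to under 1500 bp, H4K16Ac was in both lists in 65.3% and 69.1%, but H3K4me3 in 28.4% and 26.9%, and all 8 lists overlapped 23.4% and 20.9%, so that the latter values did not increase steadily with width. Wider regions have more bases that another interval can touch.

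The gap to the control list changed the H3K4me3 setting. Of the 1367 regions less than 2500 bp from a control H3K27me3 interval, 703 (51.4%) overlapped H3K4me3 and 75.5% had H3K4me3 of both diets in reach. Of the 2171 regions at 10000 bp or more, 1495 (68.9%) overlapped H3K4me3 and 50.5% had H3K4me3 of both diets in reach. The q reached 0.05 or less in 3.29% of the former and 6.86% of the latter. H4K16Ac in both lists was at 65.1% and 65.0%.

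The region with the highest −log10 q was chr4:77410333-77411227, of 895 bp, with a value of 5.85 and a fold enrichment of 2.41. Its nearest control H3K27me3 interval was 2471 bp away. It overlapped 7 of the 8 lists of the other antibodies, and of all regions it had the strongest HFD H3K4me3 interval in reach, with a −log10 q of 277, against 436 in control. On the region, fold enrichment in control and HFD was 2.46 and 2.66 for H4K16Ac, 2.80 and 3.97 for pan H4 and 3.76 and 4.61 for total H3. H3K4me3 overlapped it in HFD alone, at 2.86, with the nearest control H3K4me3 interval 2448 bp away. Its p was not the one that the genome-wide background gives for its fold enrichment. Its values gave an approximate local background of 23.1 fragments per base with a pileup of 57.0. Both are approximate, since fold enrichment and p are averages over the interval. At 36 regions (0.681%, 0.492% to 0.941%) the −log10 p exceeded the value for the genome-wide background by over 10%, against 862 of the shared intervals (5.52%).

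The second, chr16:90602539-90603142, of 604 bp, had a −log10 q of 5.57, the highest fold enrichment of all regions, 5.98, and an approximate pileup of 7.08. All 8 other lists overlapped it. H3K4me3 was 14.2 in control and 16.3 in HFD, H4K16Ac 6.0 and 9.66, pan H4 17.3 and 23.5, and total H3 19.6 and 17.7. The nearest control H3K27me3 interval lay 10601 bp away. HFD was thus higher for 3 antibodies and lower for total H3.

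Of the 8 regions with the highest −log10 q, 6 overlapped all 8 other lists. At chr1:194678899-194679500 the fold enrichment of H3K27me3 was 5.09 and no control interval was listed within 122736 bp. H3K4me3 there was 7.62 in control and 11.5 in HFD, H4K16Ac 9.32 and 7.62, pan H4 13.2 and 18, and total H3 14.6 and 18.2. At chr1:38189939-38190706, 112202 bp from a control interval, H3K27me3 was 4.70. HFD exceeded control for all 4 antibodies there, with H3K4me3 at 6.72 and 10.5, H4K16Ac at 4.66 and 5.36, pan H4 at 6.81 and 16.5, and total H3 at 7.94 and 15.9. The difference between the diets was largest for pan H4 at this site.

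The opposite direction was seen at chr9:12581704-12583101, where H3K27me3 was 4.75. H3K4me3 was 7.35 in control and 5.31 in HFD, H4K16Ac 4.60 and 3.83, and pan H4 9.08 and 5.0, while total H3 was 5.96 and 7.70. At chr15:107955647-107956224 and chr10:87272196-87272893, with H3K27me3 at 4.55 and 4.47, HFD was higher for all 4 antibodies. The ratio was smallest for H4K16Ac, which was 3.44 in control and 3.85 in HFD at the former and 5.24 and 5.68 at the latter. The eighth, chr1:254426357-254427125, with H3K27me3 at 4.42, overlapped 6 lists, since H4K16Ac and total H3 were there in HFD only, at 2.94 and 4.20.

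The 6 widest regions were weak. Their H3K27me3 fold enrichment ran from 2.34 to 2.85, and none had a q of at most 0.05. The widest, chr6:51304080-51307397, of 3318 bp, overlapped H3K4me3 in control alone, at 3.69 over 212 bp, and pan H4 in HFD alone, at 6.80. Its H4K16Ac was 4.56 and 4.66 and its total H3 4.70 and 4.42 in control and HFD. The other antibodies covered at most 326 bp of it. At chr18:392064-395017, of 2954 bp, H3K4me3 was in HFD only, at 2.58, and H4K16Ac covered 2954 bp in control and 2796 bp in HFD, at 1.80 and 1.91. At chrX:2218885-2221676, of 2792 bp and 826 bp from a control interval, all 8 lists were present and HFD was higher for each antibody, with pan H4 at 2.10 and 2.90 and total H3 at 2.31 and 3.24. The others were chr8:13408603-13411569 with 7 lists, chr16:1199353-1202310 with 6 and chr16:10726681-10729475 with 8.

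Regions beside the strongest H3K4me3 differed from the strongest regions. At chr1:11937647-11939490 the H3K4me3 interval in reach had a fold enrichment of 11.9 in control and 15.1 in HFD and lay 1237 and 1314 bp away, and 1 of the 8 lists, control pan H4 at 1.68, overlapped the region. At chr14:46634576-46635378, with the lowest H3K27me3 fold enrichment of all regions, 1.46, H4K16Ac alone overlapped, at 1.91 in control and 2.12 in HFD. Solved from its averaged values, its approximate pileup was 56.7 over an approximate local background of 38.4 fragments per base. The low fold enrichment thus went with a high approximate pileup and a high approximate background. A raised approximate local background was also obtained at chr1:11937647-11939490 (7.99, pileup 18.9) and, among the widest, at chrX:2218885-2221676 (5.81, pileup 15.0). At chr11:88182811-88183531, 1922 bp from both the control H3K4me3 and the control H3K27me3 interval, 4 lists overlapped. H3K4me3 in reach was 16 in control and 15.3 in HFD there. The control H3K27me3 interval nearest to these 3 regions lay 1168 to 1922 bp away.

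The regions farthest from control H3K27me3 lay 339492 to 518545 bp from it. At the farthest, chr8:8320057-8321236, H3K27me3 was 3.09 with a q above 0.05, H3K4me3 overlapped in control alone, at 2.24, and H4K16Ac in HFD alone, at 2.25. At chr3:54059143-54059787 H4K16Ac and total H3 overlapped in HFD alone, at 2.87 and 3.09. In contrast, chr9:21812106-21812806, 343486 bp from a control interval, overlapped all 8 lists with HFD higher for each antibody. H3K4me3 was 3.14 in control and 6.73 in HFD, H4K16Ac 3.68 and 5.76, pan H4 5.68 and 12.2, and total H3 6.45 and 8.30. At chr2:32354342-32355929 H3K4me3 and total H3 were in HFD only, at 2.88 and 2.40, and pan H4 was 2.88 in control and 4.02 in HFD. Each of these values comes from 1 pooled list and has no replicate error.

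The fold enrichment at which the control list held wide H3K27me3 intervals near H3K4me3 had a 5th percentile of 2.49, and 4771 regions (90.2%) had an HFD value at or above that. By fold enrichment their HFD values were thus in the range where the control list had entries. The pileup behind that 5th percentile was 3.68 fragments per base in control, against a median of 2.72 at the regions. The background pileup was 0.880 in control and 0.351 in HFD. Neither the fold enrichments, which hold a pseudocount, nor the pileups are therefore on one scale between the lists.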

How the data were processed

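The 10 ChIP-seq peak lists were read as deposited. For alignment the authors used bowtie2 and the build rn6, and for peak calling MACS2 with its recommended options. Versions, duplicate handling and input are not given in the sources used here. The deposited lists hold a score (10 times the −log10 q), a fold enrichment (a ratio to background), −log10 p-values and −log10 q-values, and, in narrow lists, a summit offset, which was not used. Intervals with several summits were counted once, with the strongest.

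Overlaps of at least 1 bp, gaps, shares and ratios were computed with scipy 1.17.1, pandas 2.3.3 and numpy 2.4.6 under Python 3.11.15, figures were drawn with matplotlib 3.10.9, and the interval functions were tested on simulated data. A ratio of 1.5 counted as called. Background pileups were read from the most frequent fold enrichment and its p. Regions and lists were chosen with earlier results of these data known. Named regions were the 8 with the highest −log10 q, the 6 widest, the 4 with the strongest HFD H3K4me3 in reach and the 4 farthest from control H3K27me3. Alternatives were other widths, reaches, thresholds, overlaps and chromosomes. Gene names and sequences are not given, as no rn6 genome or annotation was used here.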

Additional observations from a re-analysis of the deposited data

How the results depend on the processing

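No paired analysis was possible because the 3 libraries of a group were pooled into 1 list before deposit, which also leaves no single replicate to drop. Over 75 comparisons with 10 alternatives, 26 kept the value within its counting interval or, for the number of regions, within 1.5 times, and 49 did not. Within that wider limit the number of regions still ran from 3819 with a reach of 500 bp to 7432 with control intervals of q at most 0.05. The main values were 5287 regions, 25.3% of wide HFD intervals near H3K4me3, 56.9% with H3K4me3 of both diets in reach, 67.6% with H4K16Ac in both, 11.8% with pan H4 in HFD only, 51.2% with total H3 in both, an H3K4me3 ratio of 1.02 and a gap of 7145 bp, and values follow in this order where they moved.

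With HFD H3K27me3 intervals of q at most 0.05 these were 274, 4.36%, 71.5%, 91.2%, 9.12%, 77.4%, 1.05 and 12070 bp. With H3K4me3 intervals of −log10 q of at least 5 they were 1092, 7.51%, 38%, 73.4%, 8.42%, 62.4%, 0.973 and 3703 bp, and the ratio thereby turned its direction. Requiring overlap with H3K4me3 gave 3378, 18%, 44.6%, 85.1%, 10.8%, 69.1%, 1.04 and 8216 bp. A reach of 500 bp gave a share of 19.8%, then 46.6%, 80.5% for H4K16Ac, 64% for total H3, 1.04 and 8011 bp. With control intervals of q at most 0.05 the share was 35.6%, H3K4me3 64.1%, H4K16Ac 75%, pan H4 10.2%, total H3 60.6% and the gap 16619.5 bp. With no control interval within 2500 bp the share was 18.7%, H3K4me3 50.4%, total H3 53.6%, the ratio 1.05 and the gap 11670 bp. A minimum width of 300 bp gave 11002 regions and 32.5%, and one of 1000 bp gave 1951 regions, 24.6%, H4K16Ac 71.5% and total H3 54.5%. With at least 50% of the region covered, H4K16Ac was in both at 42.7% and total H3 at 19.97%. The cause was not tested.

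The HFD H3K27me3 values at the regions are low, with a median approximate pileup of 2.72 fragments per base. A q above 0.05 was found for 94.8% of the regions. The part of sequencing depth in these values was not tested. Listing is a matter of a threshold in each list, and the level of H3K27me3 at regions without a control interval was not measured in control.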
